A study of Mus musculus with 6 samples.

Results

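The genes described here encode 9 enzymes that make, interconvert or remove deoxynucleotides: Rrm1, Rrm2, Rrm2b, Tyms, Tk1, Dut, Dck, Dctpp1 and Samhd1. They were chosen by name, with earlier results of these data known, as 9 of 21887 protein-coding genes on the assembled mouse chromosomes. Their binding by the transcription factor E2F1 was read from peaks of chromatin immunoprecipitation followed by sequencing (ChIP-seq) that overlapped the gene or the 1000 bp on either side of it. All cells were NIH/3T3, an established line of mouse embryonic fibroblasts, with a stably integrated doxycycline-inducible construct that held either E2F1 or nothing (empty vector, EV). Both kinds of cells, 2 samples each with 1 peak list per sample, were starved of serum for 48 hours and then given doxycycline for 12 hours. The dose is 500 ng/ml per the treatment protocol, but the names of the deposited lists carry a different number beside dox, so it is uncertain. The labels also name 2 input samples of the EV cells, not analysed here. The labels call the samples replicates without saying whether they are separate cultures, so the spread between them may be technical. The lists hold no RNA, so neither the level of induced E2F1 nor the identity of the cells could be checked in them.

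A dividing cell must raise its deoxynucleotide supply before it copies its DNA, and a resting cell keeps the supply low. Ribonucleotide reductase converts ribonucleotides to deoxynucleotides, thymidylate synthase makes the thymidine nucleotide, and kinases such as Tk1 and Dck recycle nucleosides from outside or from broken-down DNA. Other enzymes remove what should not be built into DNA or lower the pool. Several of these genes are known targets of E2F factors, which bind GC-rich sequence near the starts of genes needed for DNA synthesis.

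Each list in the narrowPeak layout gives a fold enrichment per peak, the authors' ratio of the read pileup at the peak's summit to the local background, and a p-value. Weak sites are missing from them, since the smallest −log10 p of a list lay between 10.0 and 10.02. The E2F1 lists held 7836 and 8027 peaks and the EV lists 70 and 358 (replicates 1 and 2 throughout). Pileup and background, in overlapping reads at the summit, were solved from fold and p, as no read totals were used here. The lowest background of a list, taken as its genome-wide level and its only measure of depth, was 1.85 and 1.86 in E2F1 and 2.20 and 1.18 in EV. The smallest pileup listed at that level was 16 in both E2F1 lists, 17 in EV replicate 1 and 13 in EV replicate 2.

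To show where the peaks lie in sequence, the promoters of the members were taken from RefSeq (GRCm38.p6), as 250 bases before to 50 after the start of the gene. The table held 8 of the 9, with Rrm2b missing. For 4 genes the 110 bases that end just before the start are shown: Dck, whose peak was the highest, Rrm1 and Rrm2, the large and the small subunit of 1 enzyme, and Samhd1, whose peak was the weakest. For Dut and Tk1, which had the highest mean folds of the thymidylate genes, a site of 30 bases round an E2F core is shown, because the table's start lies inside the span of the gene. All are 5′ to 3′ along the gene, and capitals mark a 6-letter E2F core on either strand.

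Dck, plus strand, chr5:88764903-88765012: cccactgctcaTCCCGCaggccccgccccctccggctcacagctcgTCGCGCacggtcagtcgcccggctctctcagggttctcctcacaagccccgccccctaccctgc
Dut, plus strand, chr2:125247478-125247507: gggggagttggaGCGGGAgcgcgcttggag
Rrm1, plus strand, chr7:102441585-102441694: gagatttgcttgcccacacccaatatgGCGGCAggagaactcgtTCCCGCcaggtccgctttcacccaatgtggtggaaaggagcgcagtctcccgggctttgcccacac
Rrm2, plus strand, chr12:24708144-24708253: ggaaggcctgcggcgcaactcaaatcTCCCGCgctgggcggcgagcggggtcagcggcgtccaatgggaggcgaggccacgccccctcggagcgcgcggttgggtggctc
Samhd1, minus strand, chr2:157135097-157135206: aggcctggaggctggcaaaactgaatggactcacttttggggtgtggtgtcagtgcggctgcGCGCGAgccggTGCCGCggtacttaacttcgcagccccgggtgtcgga
Tk1, minus strand, chr11:117826069-117826098: aatgaagaaatcTGGCGCtcaacgcttgga

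The first comparison asked which of these genes carried a peak with induced E2F1 and which did without it. In each E2F1 list 8 of the 9 genes had exactly 1 peak, and the same 8 in both: Rrm1, Rrm2, Tyms, Tk1, Dut, Dck, Dctpp1 and Samhd1. Rrm2b had none. In the EV lists 0 of the 9 genes had a peak, and the nearest EV peak to any of them was 1758408 bp away, from Dck in EV replicate 2. By the same rule 36.9% and 38.2% of all protein-coding genes had a peak in E2F1 replicates 1 and 2, and 0.0366% and 0.407% in the EV replicates. A peak in both E2F1 lists was found for 34.4% of genes, and one in both E2F1 lists and neither EV list for 34.3%. The number of members with a peak averaged 8 ± 0 over the E2F1 samples and 0 ± 0 over the EV samples (SD, n = 2 each), and the exact two-sided permutation test over samples gave p = 0.333. That is the smallest p that 2 against 2 samples can give, so this design cannot reach the usual threshold. The EV lists were short as a whole, and less E2F1 in those cells and a weaker immunoprecipitation cannot be told apart.

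Ribonucleotide reductase is built from a large subunit, Rrm1, and a small one, either Rrm2, made in S phase, or Rrm2b, known as a p53-inducible form that also serves resting cells. At Rrm1 (chromosome 7, 102441695 to 102469771) the peak spanned 102441158 to 102442919 in E2F1 replicate 1 and 102441275 to 102442537 in replicate 2. Its fold was 27.8 and 25.9, ranks 345 and 1150 in the lists, from pileups of 134 and 125 reads over backgrounds of 3.86 and 3.87. The replicates thus gave nearly the same height, and the lower rank in replicate 2 came with a list whose folds are higher in general (median 11.3 against 9.19).

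At Rrm2 (chromosome 12, 24708254 to 24714146) the peak was the widest of the members, 3603 bp in replicate 1 (24706110 to 24709712) and 3091 bp in replicate 2 (24706563 to 24709653). These widths exceeded 99.5% and 99.6% of the peaks of the lists. The fold was 28.7 and 15.9, ranks 303 and 2650. The pileups were almost equal, 94 and 95 reads, and the backgrounds were 2.31 and 5.03. Both summits lay outside the gene on the side of its start, unlike those of the other members.

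Rrm2b (chromosome 15, 37923952 to 37961119) was the only member with no peak in any list. A window of 2500 bp on either side of the gene held no peak either. The non-coding gene Gm49085 lies 39 bp beyond the higher coordinate of Rrm2b, and Gm49085 had no peak within reach either. A site there with fewer than 16 reads would not have been listed, and over a background above the lowest of the list more reads would be needed. The pileups of the other 8 members were 26 or more.

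Tyms, Dut and Tk1 feed thymidylate: Tyms makes it from dUMP, Dut makes that dUMP by breaking down dUTP, which also keeps uracil out of DNA, and Tk1 phosphorylates thymidine. At Tyms (chromosome 5, 30038546 to 30073645) the peak spanned 30071525 to 30074116 in replicate 1 and 30072731 to 30073885 in replicate 2. The fold was 18.6 and 9.92, ranks 1071 and 4628, so that the peak stood above 86.3% of its list in one replicate and above 42.3% in the other. The pileups were 52 and 55 reads and the backgrounds 1.85 and 4.65. The summits were also the furthest apart of any member, by 532 bp.

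At Dut (chromosome 2, 125247248 to 125259049) the peak spanned 125247206 to 125248397 and 125247199 to 125248282. By log2 ratio of fold and of pileup the replicates differed most here. The fold was 17.7 in replicate 1 and 64.7 in replicate 2, ranks 1213 and 73. By the share of the list with a lower fold, they differed by 14.6 points here and by 43.9 at Tyms, the most of the members. The pileup was 92 against 184 reads and the background 4.24 against 1.86, so both terms of the ratio moved. Dut was the only member whose pileup differed by more than 0.42 on the log2 scale between the replicates, with a value of 0.99.

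At Tk1 (chromosome 11, 117815519 to 117826087) the peak spanned 117824597 to 117826287 and 117824473 to 117826287. The fold was 27.5 and 19.7, ranks 357 and 1848, with pileups of 122 and 133 reads over backgrounds of 3.47 and 5.81. The peak also covers the start of Afmid, a gene for arylformamidase that runs the other way from 117825503 and overlaps Tk1. The summits lay 79 and 38 bp from that end of Afmid's span, and 505 and 622 bp from the nearest boundary of Tk1. Relative to the Afmid start given in the promoter table they lay at -337 and -454 bp, so the peak cannot be given to either gene alone. Afmid was the only protein-coding gene besides the members within 1000 bp of a member's peak.

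Dck, the kinase that salvages deoxycytidine and other deoxynucleosides, had the highest fold of the members in both lists. At this gene (chromosome 5, 88765013 to 88783277) the peak spanned 88764990 to 88766121 and 88764908 to 88765758. The fold was 35.1 and 68.1, ranks 144 and 61, with pileups of 156 and 199 reads over backgrounds of 3.47 and 1.94. Among the 7537 protein-coding genes with a peak in both E2F1 lists it ranked 60 by mean fold percentile, the share of the peaks of a list with a lower fold, averaged over both lists. The genes nearest to it on that measure, over 2 samples, were Gm40864 (folds of 38.6 and 59.5) and Fchsd2 (folds of 34.4 and 70.2), all 3 at 98.7.

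Dctpp1 and Samhd1 work against the pool. Dctpp1 hydrolyses dCTP and damaged forms of it, and Samhd1 removes the triphosphate from all deoxynucleotides and is known for keeping their level low in resting cells. At Dctpp1 (chromosome 7, 127256959 to 127260667) the peak spanned 127260044 to 127260744 and 127260306 to 127260749. The fold was 13.5 and 13.1, ranks 2093 and 3408, with a pileup of 49 reads in both lists over backgrounds of 2.70 and 2.81. By log2 ratio of fold and of pileup it was the closest match between the replicates among the members, though not by rank, background or summit position.

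At Samhd1 (chromosome 2, 157097534 to 157135096) the peak spanned 157134527 to 157135147 and 157134493 to 157135317. The fold was 9.48 and 7.39, ranks 3735 and 5934, with pileups of 26 and 35 reads over backgrounds of 1.85 and 3.87. It was the lowest of the members in both lists and by both measures. With peaks restricted to those at or above the median score of their list, it was the only one of the 8 that dropped out, which left 7 of 9 members beside 17.1% of all protein-coding genes.

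**Figure D1:**
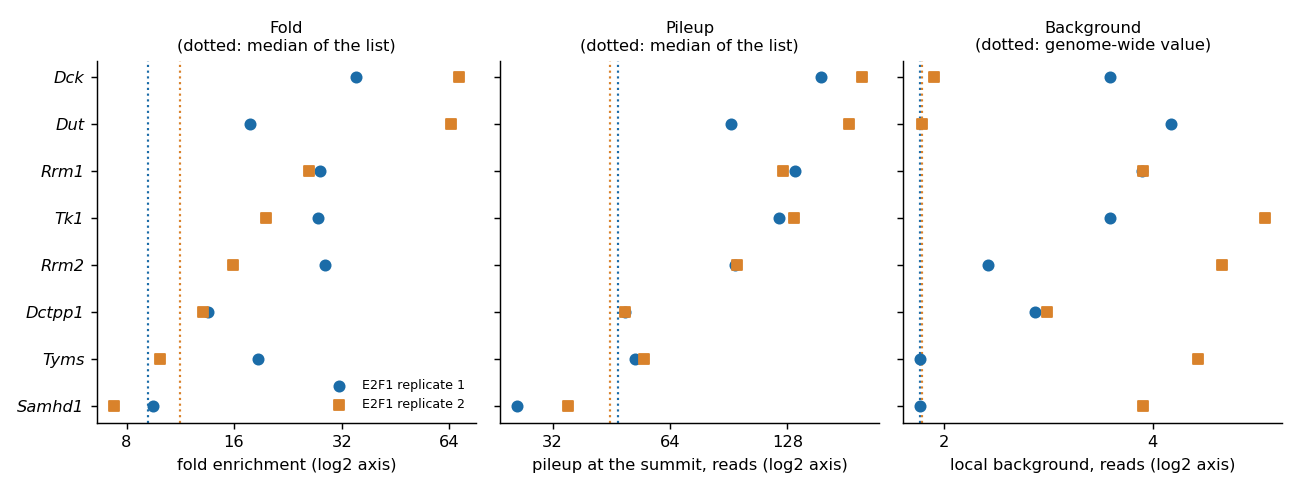
Fold enrichment, pileup and local background (log2 axes, pileup and background in reads) of the peak at each of the 8 genes, with circles for E2F1 replicate 1 and squares for replicate 2; EV lists hold no peak at these genes. Pileups lie furthest apart at Dut (92 and 184 reads), and backgrounds lie apart at every gene but Rrm1 (3.86 and 3.87) and Dctpp1 (2.70 and 2.81).

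The members were then placed among all peaks of their own list. The median fold percentile of the 8 peaks was 90.9 in E2F1 replicate 1 and 72.0 in replicate 2, where all peaks of a list have 50. By pileup the medians were 84.0 and 88.2, closer to each other. All 8 exceeded the median fold of the list in replicate 1 and 6 did in replicate 2, with Tyms and Samhd1 below it. By pileup 7 of 8 exceeded the list's median of 47 and 45 reads, Samhd1 being the one below. Averaged over the lists, the members with a peak had a median fold percentile of 83.9, and all 7537 genes with a peak in both lists one of 56.0. Since only genes with a listed peak enter these medians, Rrm2b has no place in them.

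The order of the 8 by mean fold percentile ran from Dck (98.7) through Dut (91.8), Rrm1 (90.6), Tk1 (86.2), Rrm2 (81.6), Dctpp1 (65.4) and Tyms (64.3) to Samhd1 (39.1). None of the 7 neighbouring pairs in that order differed by more than the larger SD of the pair (n = 2 each). By mean pileup the order was Dck (178 ± 30.4 reads, SD, n = 2), Dut (138 ± 65.1), Rrm1 (130 ± 6.36), Tk1 (128 ± 7.78), Rrm2 (94.5 ± 0.707), Tyms (53.5 ± 2.12), Dctpp1 (49 ± 0) and Samhd1 (30.5 ± 6.36). There 4 of the 7 pairs differed by more than the larger SD, namely each step from Tk1 downward. The 3 pairs among the first 4 genes (Dck and Dut, Dut and Rrm1, Rrm1 and Tk1) did not. These comparisons of SDs over 2 samples are descriptions and not tests.

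**Figure D2:**
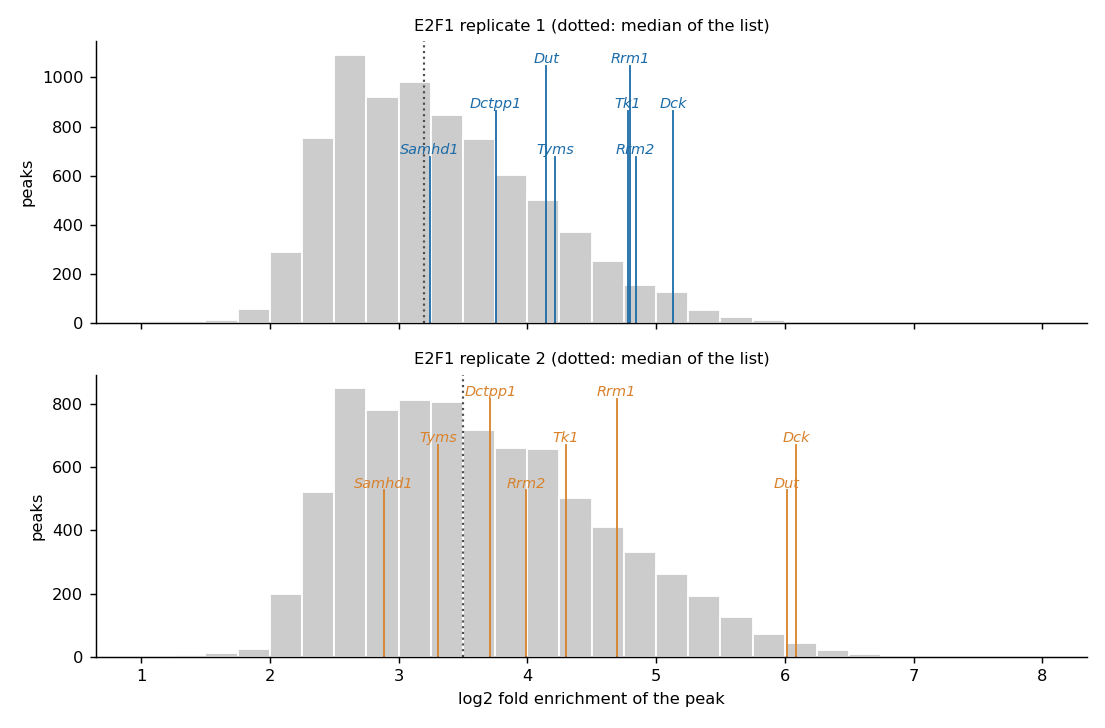
Number of peaks by log2 fold enrichment in E2F1 replicate 1 (top) and replicate 2 (bottom), with a line for each of the 8 genes and a dotted line at the list's median. Dck is the furthest right in both lists, and Dut moves from a fold of 17.7 to 64.7.

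The fold ratio between the replicates was split into its pileup and background terms. At Dck, Tk1, Rrm2, Dctpp1, Tyms and Samhd1 the background term was the larger in size, and at Dut and Rrm1 the pileup term was. Of 6877 peaks paired one to one between the E2F1 lists, 29.7% had a lower fold in replicate 2, and the median log2 ratio of replicate 2 to replicate 1 was 0.34. Of the members, 6 of 8 had a lower fold in replicate 2, with a median of -0.23 and a range from -0.91 at Tyms to 1.87 at Dut. The log2 ratio of pileup plus 1 had a median of 0.10 over the members and 0.00 over 6875 pairs, while that of background plus 1 had a median of 0.32 over the members and -0.32 over the pairs. At Rrm2 the fold ratio of -0.85 was made up of 0.02 for the pileup and 0.86 for the background, which enters with the opposite sign. At Tyms the fold ratio of -0.91 was made up of 0.08 and 0.99. At Dck the fold ratio of 0.96 was made up of 0.35 and -0.61. The backgrounds of Tyms and Samhd1 in replicate 1 and of Dut in replicate 2 were at the genome-wide level of their list. The control behind each background is not given in the sources used here, and its part in these differences was not tested beyond this arithmetic.

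**Figure D3:**
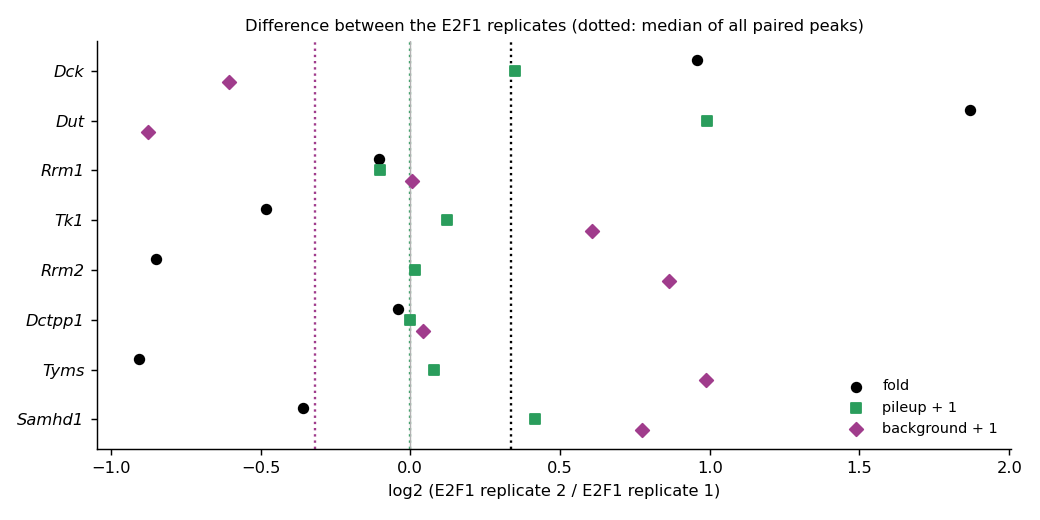
Log2 ratio of E2F1 replicate 2 to replicate 1 at each gene for the fold (circles), the pileup plus 1 (squares) and the background plus 1 (diamonds); dotted lines mark the median of all paired peaks in the same colours. The pileup ratio is largest at Dut (0.99), followed by Samhd1 (0.42) and Dck (0.35), and lies between -0.10 and 0.12 at the other 5 genes, and the fold ratio is the pileup ratio less the background ratio.

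Summits lay over the first part of the genes more often than before it. All 16 member peaks overlapped the 300-base promoter window, but only 2 of the 16 summits fell in it, those of Rrm2 and Dut in replicate 2. At 7 of the 8 genes both summits lay downstream of the start, by 297 and 268 bp at Dck, 381 and 400 bp at Rrm1, 432 and 549 bp at Tk1 and 673 and 141 bp at Tyms. They lay 68 and 31 bp downstream at Dut, 105 and 64 bp at Dctpp1 and 171 and 331 bp at Samhd1. The exception was Rrm2, with offsets of -269 and -77 bp. The median offset of the members was 234 bp in replicate 1 and 205 bp in replicate 2. Over all summits within 1000 bp of a protein-coding start it was 140 bp (5643 summits) and 68 bp (5784 summits), with 76.4% and 67.2% downstream. Replicate summits were a median of 79 bp apart at the members and 54 bp apart over the paired peaks.

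**Figure D4:**
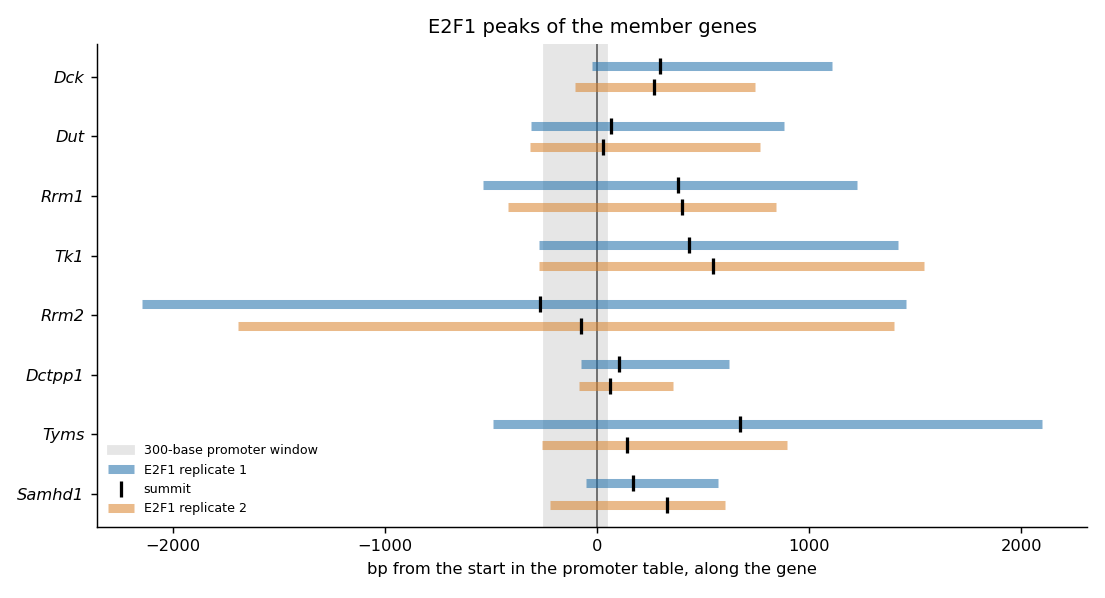
Peak intervals (bars) and summits (black ticks) of the 8 genes in both E2F1 lists, in bp from the start in the promoter table along the direction of the gene, with the 300-base promoter window shaded. Summits lie to the right of the start at every gene but Rrm2, whose peaks of 3603 and 3091 bp are the widest.

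The promoter windows were then searched on both strands for E2F motifs. Of the 8-letter forms searched, which were TTTCCCGC and TTTGGCGC and also TTTCGCGC and TTTGCCGC, 0 of the 8 member promoters held any, beside 2.26% of 32851 promoters of all genes and 5.89% of the 6993 that lay in peaks of both E2F1 lists. Without the first letter, 2 of 8 held one, TTCCCGC in Rrm1 at position -67 and the reverse complement of TTGCCGC in Rrm2 from position -235 (position -1 is the base before the start, and the first base of the match is given). This compares with 9.57% of all promoters and 23.6% of those in peaks. Without the first 2 letters, a core chosen after the other forms had been counted, all 8 held one, beside 36.3% of all promoters, 77.8% of those in peaks and 25.03% of the others.

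In the sequences printed above, the cores of Dck start at positions -99 and -64, that of Dut at -25, those of Rrm1 at -83 and -66 and that of Rrm2 at -84. In Samhd1 they start at -48 and -37, and in Tk1 at -72. Those of Tyms and Dctpp1 lie after the start, at positions 23 and 17. Both cores of Dck lie outside its peak in E2F1 replicate 1, which covered only the 23 of the 110 bases nearest the start. In replicate 2 the peak covered 105 of the 110 bases, with both cores. The other cores shown lie in the peaks of both lists. A GC box, GGGCGG, was found in 7 of the 8 (all but Rrm1), with 6 copies in Dck, beside 35.7% of all promoters and 77.2% of those in peaks. CCAAT was found in 3 of 8, namely Rrm1, Rrm2 and Dctpp1, beside 37.4% of all promoters and 35.9% of those in peaks. TTTGAA, the letters of the cell cycle homology region, was found in 1 of 8, Dck, beside 17.9% of all and 9.31% of those in peaks. In Rrm2 the GC box at -75 begins 9 bases after the core at -84 begins, and in Dut the GC box at -94 overlaps a further core at -92, outside the site shown. The median GC content was 61.7% in the member promoters, 65.7% in those in peaks and 52.7% in all. The part of GC content in these motif shares was not tested. A match only describes the letters, and the summits of most members lay outside the window searched.

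The wider pathway was read from 7 lists of nucleotide enzymes and transporters with 72 genes. Of these 46 (63.9%) had a peak in both E2F1 lists, beside the 34.4% of all protein-coding genes, 10 had one in a single list, 16 had none and 0 had one in an EV list. Peaks at or above the median score in both lists were found for 24 of the 72, beside 17.1% of all genes. These were 6 of 10 genes for thymidylate and folate, 4 of 7 for pyrimidine and 5 of 13 for purine synthesis. They were also 5 of 16 for pool cleaning and breakdown, 2 of 11 for salvage, 1 of 11 kinases and 1 of 4 transporters. The median mean fold percentile of the 46 was 62.7, and that of the members with a peak 83.9. By list it was 85.2 for de novo purine synthesis, 77.6 for de novo pyrimidine synthesis and 73.3 for thymidylate and folate. It was 68.1 for pool cleaning and breakdown, 53.1 for salvage, 40.2 for transport and 38.4 for the kinases. The purine value lay above that of the members only because the peak shared by Ppat and Paics counts for both genes. With that peak counted for 1 gene, it would lie midway between 44.9 (Gmps) and 85.2 (Gart), below the members.

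Folate enzymes and Dtymk, which hand carbon to thymidylate and phosphorylate it, had a peak in both lists at 7 of 10 genes, led by Mthfd1l (folds of 18.9 and 42.1) and Mthfd2 (32.9 and 24.97), both of the mitochondrial folate cycle. Mtr and Aldh1l2 had none. De novo pyrimidine synthesis had 5 of 7, led by Cmpk1 (16.9 and 21.2), a UMP/CMP kinase, and Cad (17.6 and 19.9), which carries out the first steps of the pathway, and Cmpk2 had none. De novo purine synthesis had 9 of 13, led by Ppat and Paics, neighbours that share 1 peak with folds of 29.4 and 63.9, and Adssl1 had none. Ppat catalyses the committed step of purine synthesis, and that peak had a mean fold percentile of 97.7 beside the 98.7 of Dck.

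Salvage enzymes had a peak in both lists at 6 of 11 genes, led by Dctd (13.6 and 16.0), the dCMP deaminase, and Hprt (11.1 and 20.3), which recycles purine bases. Tk2, the mitochondrial counterpart of Tk1, had none, and neither did Aprt and Uckl1. Nucleotide kinases had 8 of 11, led by Ak6 (10.9 and 13.9) and Nme1 (8.57 and 14.5), and Ak1 had none. Pool cleaning and breakdown had 9 of 16, led by the nucleotidases Nt5c2 (28.2 and 34.4) and Nt5c3 (17.2 and 20.5). Its 6 genes without a peak included Dpyd, Gda, Nt5e and Upp1. Of the nucleoside transporters 2 of 4 had one, Slc29a1 (14.9 and 13.5) and Slc29a2 (4.59 and 6.75), and Slc28a2 and Slc29a3 had none. No test was made of these lists.

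**Figure D5:**
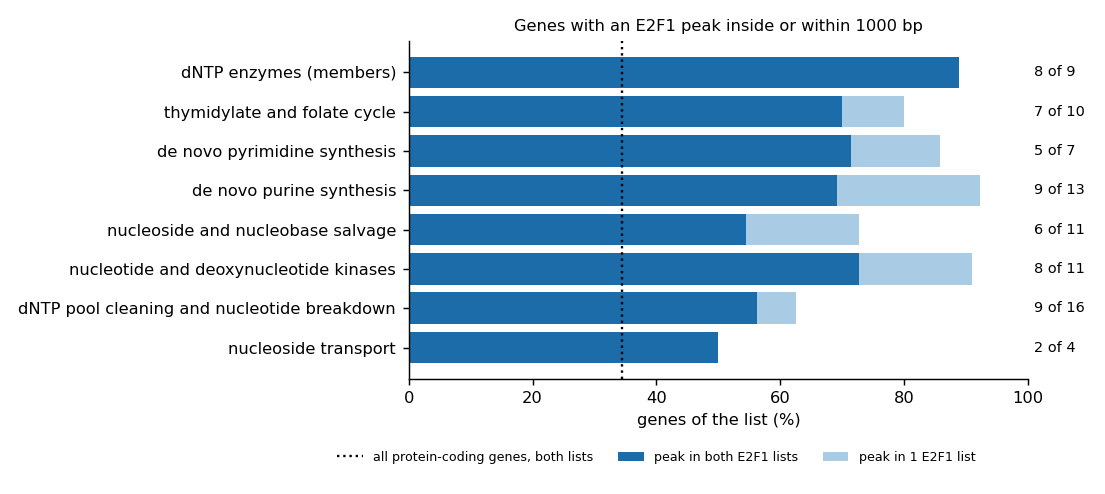
Share of the genes of each list with a peak in both E2F1 lists (dark) or in 1 of them (light), in percent, with the count in both at the right; the dotted line marks the 34.4% of all protein-coding genes with a peak in both. Every list lies to the right of that line, from 2 of 4 transporters to 8 of 9 deoxynucleotide enzymes.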

How the data were processed

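The deposited lists, 1 per sample, have 10 columns and no header. Per the submitters' processing notes, FastQC, Trimmomatic, Bowtie2, MACS2 and ChIPseeker were used with build mm10, and settings, versions, antibody and control are not given in the sources used here. The deposited score is the integer part of 10 times the deposited −log10 q-value. The deposited fold is a ratio of pileup to local background at the summit, beside the deposited −log10 p-value.

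Peaks were assigned to genes of the RefSeq table (GRCm38.p6) when they overlapped the gene extended by 1000 bp. Pileup and background were solved with a pseudocount of 1 and a Poisson upper tail. A whole pileup within 5% of the step between neighbouring values was found for all 16 member peaks and for 95.7% to 99.99% of the peaks per list. The solver and the assignment were tested on simulated data. Groups and replicate numbers came from the titles. The members, the pathway lists and the tests were chosen with earlier results of these data known. All members were named. From each pathway list the 2 genes with the highest mean fold percentile and up to 5 without a peak were named, by alphabet, except that 1 such gene is not reported here. All 81 symbols matched. Python 3.11.15, pandas 2.3.3, numpy 2.4.6, scipy 1.17.1 and matplotlib 3.10.9 were used.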

Additional observations from a re-analysis of the deposited data

How the results depend on the processing

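Of 25 alternatives over 5 results, 21 were labelled as leaving the result in place and 4 as moving it. This tally does not measure robustness. No rule was applied to the member counts, and percentiles counted as unmoved within 13.4, the SD of the 2 replicate medians. Each member had exactly 1 peak per E2F1 list, so taking every assigned peak could not change the percentiles. The difference in members with a peak, 8, was the same with 500 bp, 2500 bp, summits and boundaries only, and 7 with the median score. Leaving out each sample in turn gave 8 to 8, as counts without spread must. The replicate block gave 8 with an exact sign-flip p = 0.5, the smallest 2 pairs can give, and counts without spread cannot show a pairing. By recovered pileup, in which the background does not enter, the median percentile of the members in E2F1 replicate 2 moved from 72.0 to 88.2. By score, in which the background does enter, it was 84.2, counted as unmoved. The reason for these shifts was not tested. The 46 pathway genes became 24 with the median score, which leaves fewer peaks, and 50 to 52 with 1 E2F1 list alone. Member promoters with an E2F motif went from 0 to 2 with 7 letters and to 8 with 6 letters, the last form chosen after seeing the data, shorter motifs being met more often. Filtering at a fixed p hides weak sites in every list, and 2 samples a group limit every comparison.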

Other observations

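The promoter windows of 3 members hold a 12-letter run 2 times, found after the sequences had been seen. In Dut the run GCGGGAGCGCGC, which includes an E2F core, starts at positions -92 and -25, and 77 of 32851 promoters (0.234%) hold it at least once on either strand. In Rrm1 the run CAATATGGCGGC starts at -90 and at 2, on either side of the start, and 14 promoters (0.0426%) hold it. Its last 8 letters, ATGGCGGC, occur in 2.24% of all promoters and in 6.95% of those in peaks of both E2F1 lists. In Dck the run GCCCCGCCCCCT, which includes the reverse complement of a GC box, starts at -91 and -19, and 287 promoters (0.874%) hold it. No repeat in the windows of the other 5 members was longer than 9 letters. Whether such repeats bear on the peaks was not tested.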
